A study of Homo sapiens with 5 samples.

Results

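The sites described here are the FOXB1 ChIP-seq sites that lay near the ends of the human chromosomes. ChIP-seq, which sequences the DNA that an antibody pulls down with its bound protein, was run with an anti-FOXB1 antibody on day 3 pre-neural crest cells. These were made from the human embryonic stem cell line WA01 in medium with 3 µM of the GSK3 inhibitor CHIR 99021 and, at first, 10 µM of the ROCK inhibitor Y-27632. The groups were 2 wild-type (WT) libraries, 2 libraries of the FOXB1 dgRNA-KO line, in which CRISPR/Cas9 had removed the FOXB1 sequence for the DNA-binding domain (KO), and 1 wild-type input library made without antibody. By the labels, all shared the cell line, medium and day, though the name of the input directory mentions 2 days. The labels do not say whether the KO line is 1 clone or whether the replicates were separate cultures. P-values of the fits run over sites, peaks and arms of the 2 WT libraries. Only the comparison of WT with KO runs over libraries, and no p-value can stand for the spread between cultures or clones.

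Peaks of the 2 WT lists that overlapped by at least 1 bp were merged to one site. A site counted as subtelomeric when its centre lay within 5 Mb of either hg19 end of chromosomes 1 to 18 or 20 to 22 and each of its peaks had 3 or fewer input tags. There were 862 such sites among 5578 WT sites on all chromosomes and 5210 on these 21 chromosomes. They were set against the 4110 sites with equally few input tags farther inside the same 37 arms. The short arms of chromosomes 13, 14, 15, 21 and 22 have no sequenced end, so no site could be found there, and they were left out. Aligned reads, called tags, numbered 19091152 in WT replicate 1, 22637495 in WT replicate 2, 15106068 in KO replicate 1 and 16745101 in KO replicate 2. The caller estimated fragments of 182 bp for WT replicate 1 and 134 bp for WT replicate 2.

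FOXB1 belongs to the forkhead family, transcription factors that bind DNA through a winged-helix domain, and it is known from the early neural tube and its progenitors. The outer parts of human chromosome arms tend to be rich in genes and in GC, recombine often and, next to the telomere repeats, hold blocks of sequence that are duplicated between chromosomes. Reads from duplicated blocks are hard to place, which limits what a peak list can show in the outermost sequence.

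FOXB1 sites were denser near the chromosome ends than in the rest of the arms. The end windows held 4.66 sites per Mb (Poisson 95% interval 4.35 to 4.98) and the interiors 1.61 (1.56 to 1.66), so that 6.75% of the arm length held 17.3% of the 4972 sites. In a Poisson regression of sites per arm and zone with the arm as a term, the density ratio was 2.78 (95% interval 2.37 to 3.26, n = 37 arms, adjusted p = 9.39e-36). The end was denser than the interior in 33 of 37 arms, and the exceptions were 3p, 15q, 17p and 18p. Each WT list on its own gave a ratio above 1, 2.15 in WT replicate 1 and 2.89 in WT replicate 2. Sites found in both lists had a ratio of 1.98. Sites left out for their input tags were 39 of 901 at the ends (4.33%) and 185 of 4295 in the interior (4.31%).

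With the lists merged, density rose outwards over the outer 20 Mb, to its highest value between 1 and 2 Mb from the end. It was 4.57 sites per Mb (Poisson 95% interval 3.90 to 5.31) in the outermost Mb, 5.68 (4.93 to 6.5) in the next, then 4.84 from 2 to 3 Mb, 4.81 from 3 to 4 Mb and 3.41 from 4 to 5 Mb. From 5 to 10 Mb it was 2.62, from 10 to 15 Mb 1.96 and from 15 to 20 Mb 1.82 sites per Mb. The fall therefore continued past the 5 Mb limit, and against the neighbouring 5 to 15 Mb alone the density ratio was 2.03. The high value between 1 and 2 Mb was seen in WT replicate 2 only. That list had 4.62 peaks per Mb there and 3.86 in the outermost Mb, while WT replicate 1 had 2.30 and 2.43. The intervals of these 2 bins for the merged sites also overlapped. Sites found in both lists followed a shallower course, from 1.73 per Mb in the outermost Mb to 1.16 between 4 and 5 Mb and 0.733 between 15 and 20 Mb.

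**Figure D1:**
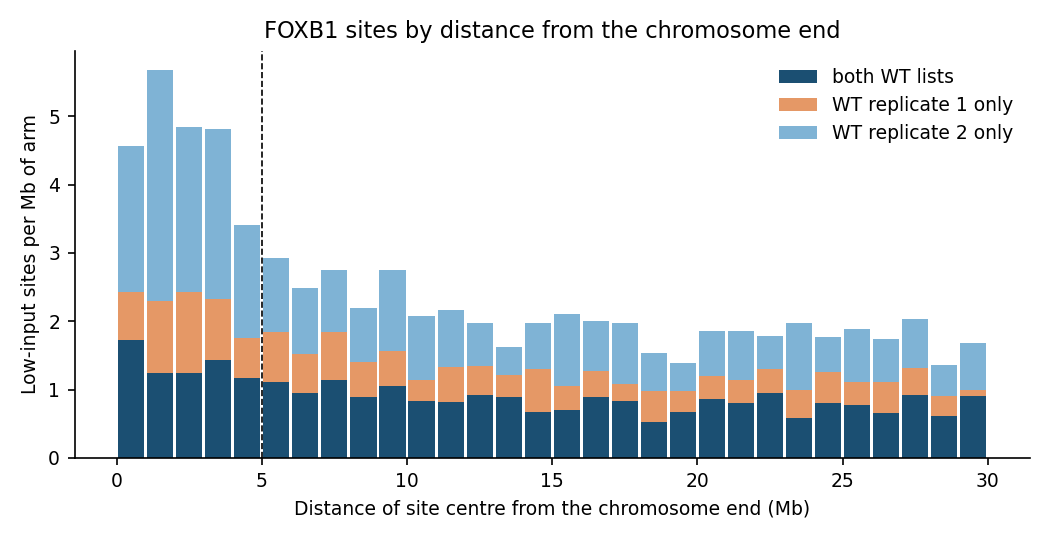
Low-input FOXB1 sites per Mb of arm (vertical axis) by distance of the site centre from the chromosome end in bins of 1 Mb (horizontal axis), stacked by the WT lists that held them; the dashed line marks 5 Mb. The bars fall from 5.68 sites per Mb between 1 and 2 Mb to about 2 beyond 10 Mb, and the part found in WT replicate 2 alone falls most.

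Few of these sites lay in the outermost sequence. Within 300 kb of an end there were 22 members, on 15 arms, or 1.98 per Mb (Poisson 95% interval 1.24 to 3.00), an interval that holds the interior mean of 1.61. Within 100 kb there were 2, or 0.541 per Mb (0.0655 to 1.95). The limit on input tags left out 2 further sites within 100 kb, both found in the 2 WT lists and both taller than these 2 members. They were on 4p (52729 to 53049; heights of 50.3 and 43.3; 4 input tags in each list) and on 12p (95325 to 95662; heights of 26.2 and 25.2; 4 and 5 input tags). The nearest was on 5p from 48302 to 48618, in WT replicate 1 alone with a height of 7.33 normalized tags, where height is a peak's tag number scaled to a library of 10000000. The next was on 12p from 94569 to 94889, in WT replicate 2 alone with a height of 11, beside the taller shared site on that arm that was left out. The third lay on 20q from 62917663 to 62917979, in WT replicate 1 alone with a height of 9.43. The other two of the 5 nearest were neighbours on 4q. One, from 191043792 to 191044273, was in both lists with heights of 8.90 and 8.83, and the other, from 191042843 to 191043163, was in WT replicate 2 alone with a height of 9.28. Of these 5 sites, 1 was thus in both lists. Over the arms, the distance from the end to the nearest site ranged from 48.5 to 1308 kb with a median of 326 kb, and the arms 5q, 8q and 14q had none in their outermost Mb. Unsequenced bases count in these distances.

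The arms differed widely in how many sites their ends held, from 4 to 40 with a median of 23. The 5 fullest ends were 21q with 40 sites, 7q with 39, 20q with 38, 7p with 37 and 9q with 36, a number that 16q and 17q also reached. These 5 ends held 190 members, 22% of all. The order differed between the lists. WT replicate 1 had its most members on 7p (21) and had 15 on 21q, while WT replicate 2 had its most on 21q (36) and had 30 on 7p. The 5 emptiest were 9p with 4 sites, 3p with 5, 15q and 18p with 7 each and 4q with 8. Together these held 31 members, or 3.6%. The fullest end, 21q, had 8 sites per Mb (Poisson 95% interval 5.72 to 10.9) and the emptiest, 9p, had 0.800 (0.218 to 2.05). Both were picked as the extremes of all arm ends, so their intervals are no test of a difference between arms.

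The ends of one chromosome could differ as much as those of different chromosomes. On chromosome 4 the short arm end held 34 sites and the long arm end 8, and on chromosome 9 the order was the opposite, with 4 and 36. Most of this contrast lay in sites of 1 list alone. Sites in both lists numbered 5 on 4p and 3 on 4q, and 2 on 9p and 4 on 9q. On chromosome 7 both ends were full. Relative to its own interior, the largest excess was on 5p, with 6.20 sites per Mb at the end and 1.07 inside, a ratio of 5.80. It was followed by 8q (5.41) and 13q (5.29), and the lowest ratio was 0.635 on 3p. The excess on 5p lay mostly in sites of 1 list alone. Of its 31 end sites 4 (12.9%) were in both lists, against 56.5% of its 46 interior sites. Over the 16 short and 21 long arms, end densities were 3.84 (3.42 to 4.29) and 5.29 (4.86 to 5.74) sites per Mb. These intervals cover counting error only, not the spread between arms, and the difference between short and long arms was not tested. End and interior density went together only weakly over the arms (Pearson's r 0.307, Spearman's rho 0.206, n = 37 arms, a description over arms that share the libraries).

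**Figure D2:**
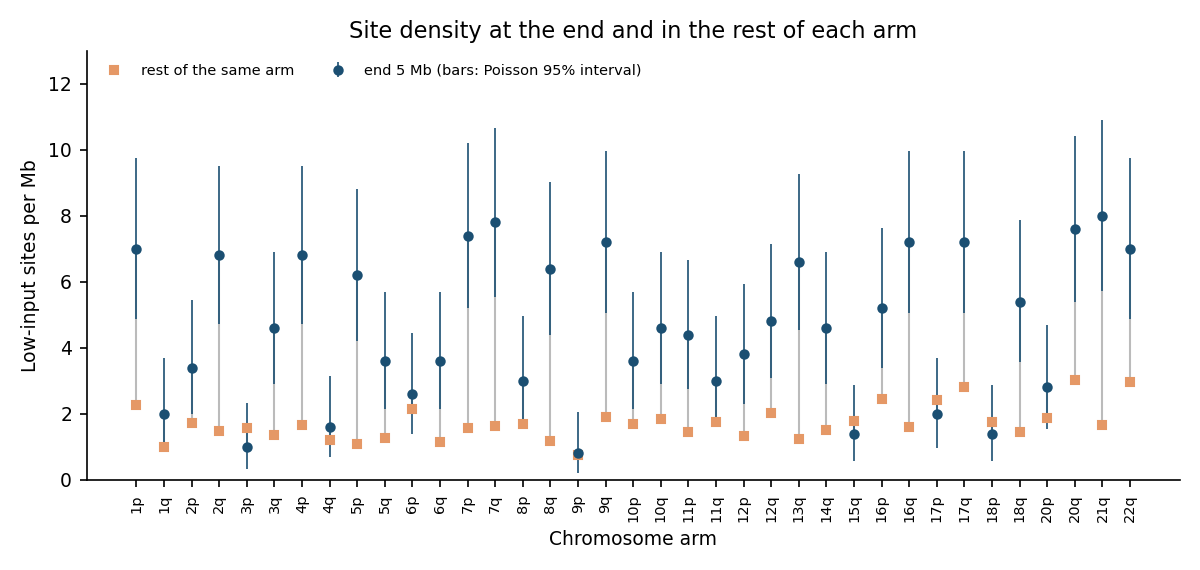
Low-input sites per Mb (vertical axis) in the end 5 Mb (circles, bars are Poisson 95% intervals) and in the rest of the same arm (squares) for 37 arms. Circles lie above squares in 33 arms, highest on 21q at 8 and lowest on 9p at 0.800.

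Arm ends with many sites in one WT list alone also tended to have many in the other alone. Counts of sites in WT replicate 1 alone and in WT replicate 2 alone went together over the 37 arm ends (Pearson's r 0.581, Spearman's rho 0.631). These single-list sites do not overlap, but some lie side by side, with centres 0.32 kb apart in the closest pair. The same region can therefore enter both counts. Both counts also come from the same 37 windows and rest on the same input, so the relation is a description. On 21q, 4 sites were in WT replicate 1 alone and 25 in WT replicate 2 alone. On 9q the counts were 12 and 20, on 5p 11 and 16, and on 3p 0 and 2.

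Fewer of the subtelomeric sites were found in both WT lists. Of the 862 members, 252 were in both lists, 164 in WT replicate 1 alone and 446 in WT replicate 2 alone. The shared part was 29.2% (exact 95% interval 26.2 to 32.4%), against 41.4% (39.9 to 42.9%) in the interior and 39.3% over all 4972 sites. In a logistic regression with errors clustered by arm, the odds ratio was 0.585 (95% interval 0.483 to 0.708, n = 4972 sites, adjusted p = 1.26e-07), and the share was lower at the end in 29 of 37 arms. It did not change evenly with distance. It was 37.9% (30.5 to 45.6%) in the outermost Mb, 21.9% (16.5 to 28.1%) between 1 and 2 Mb and 34.1% (25.9 to 43.1%) between 4 and 5 Mb.

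The 2 lists differed in this. With the members of WT replicate 2 as the denominator, the odds ratio was 0.504 (95% interval 0.417 to 0.609). With those of WT replicate 1 it was 0.807 (0.623 to 1.04, n = 3010 sites, p = 0.103 without adjustment), which did not pass. WT replicate 2 had 698 peaks at the member sites and WT replicate 1 had 416, a ratio of 1.68, against 1.24 in the interior (3217 and 2594 peaks). Among single-list sites, 73.1% (69.4 to 76.6%) at the ends and 62.9% (61.0 to 64.9%) inside came from WT replicate 2. This odds ratio was 1.60 (95% interval 1.32 to 1.95, n = 3019 sites, adjusted p = 4.13e-06). Sites of WT replicate 2 alone outnumbered those of WT replicate 1 alone at 35 arm ends and equalled them at 2. Among sites with a height of at least 10 the odds ratio was 1.44 and no longer passed (n = 631 sites, p = 0.0591). WT replicate 2 was the deeper library and had the shorter fragments, and the part of either in this difference was not tested.

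Sharing was compared at like height because low peaks were shared least. All 4972 sites were put in 4 groups by the height of their taller peak. In the lowest group (6.18 to 8.38 normalized tags) 4.63% of end sites and 4.79% of interior sites were shared. In the next (8.39 to 9.43) these were 18.0% and 20.8%. In the third (9.72 to 11.9) they were 37.6% (31.3 to 44.2%) and 54.5% (51.4 to 57.6%), the only group in which the intervals were apart. In the highest group (12 and above) they were 78.9% (71.4 to 85.2%) and 84.6% (82.3 to 86.7%). With log2 height as a term, the odds ratio over all sites was 0.684 (95% interval 0.542 to 0.864, n = 4972 sites, p = 0.0014 without adjustment).

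**Figure D3:**
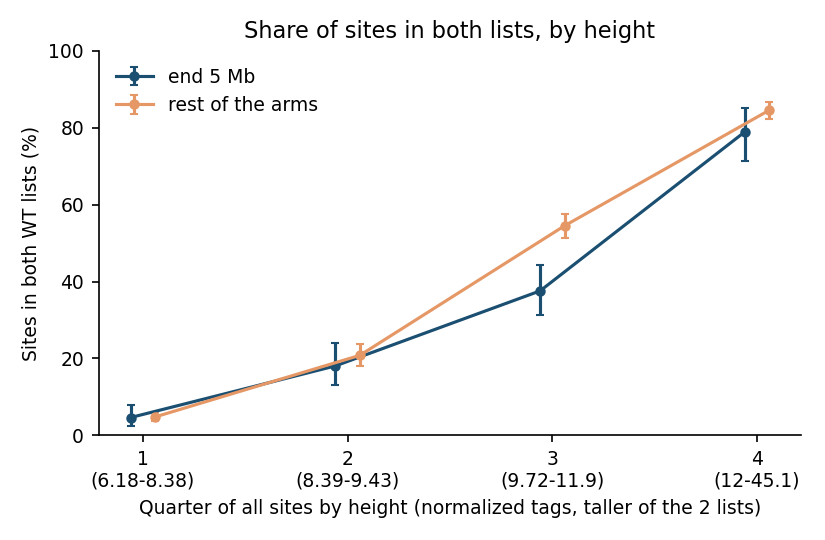
Percent of sites found in both WT lists (vertical axis, bars are exact 95% intervals) in 4 groups of rising height in normalized tags (horizontal axis), for the end 5 Mb and the rest of the arms. The lines stay close in the lowest groups and are apart in the third, at 37.6% and 54.5%.

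Subtelomeric peaks were slightly lower than interior ones. The median height was 9.43 normalized tags at the ends and 9.95 inside in WT replicate 1, and 8.83 and 9.72 in WT replicate 2. Heights at the ends ran from 6.81 to 27.2 and from 6.18 to 30.5, while interior peaks reached 41.4 and 45.1. Within arms, by least squares over all peaks of a list with errors clustered by arm, the log2 difference was -0.04 (95% interval -0.083 to -0.0032, n = 3038 peaks, adjusted p = 0.0381) in WT replicate 1. In WT replicate 2 it was -0.06 (-0.096 to -0.019, n = 3931 peaks, adjusted p = 0.00418). Many arms did not show it. The median height was lower at the end in 21 of 36 arms with at least 3 end peaks in WT replicate 1. In WT replicate 2 this held for 21 of 37. Heights of at least 10 were reached by 162 of 416 end peaks (38.9%) in WT replicate 1, against 45.6% over all sites of that list, and by 232 of 698 (33.2%) in WT replicate 2, against 42.8%. The difference did not pass among shared peaks alone (-0.0365 and -0.0233) or among peaks of at least 10 (-0.0075 and 0.0045). In WT replicate 1 it also did not pass against 5 to 15 Mb alone (-0.0198), with a 2 Mb window (-0.0401) or with no limit on input tags (-0.0335).

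The rise above the surrounding 10 kb was also a little smaller. The median fold over local tags, the authors' value, was 7.43 at the ends and 7.93 inside in WT replicate 1, and 6.82 and 7.37 in WT replicate 2. The log2 difference within arms was -0.07 (95% interval -0.138 to 0.0075, n = 3038 peaks, adjusted p = 0.0788) in WT replicate 1, which did not pass. It was -0.08 (-0.130 to -0.0266, n = 3931 peaks, adjusted p = 0.00418) in WT replicate 2, and it did not pass there among shared peaks, peaks of at least 10 or against 5 to 15 Mb. Mean input tags were 1.53 at the ends and 1.46 inside in WT replicate 1, and 1.47 and 1.41 in WT replicate 2. The clonal fold, a measure of duplicate reads, had the same median of 0.920 in both zones and both lists.

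Peaks near the ends were less sharply focused, by the focus ratio. This is the caller's share of tags that lie where a single bound point would put them, forward-strand tags on one side of the centre and reverse-strand tags on the other. Its median was 0.770 (quartiles 0.667 and 0.868) at the ends and 0.833 (0.750 and 0.889) inside in WT replicate 1. In WT replicate 2 it was 0.760 (0.654 and 0.85) at the ends and 0.826 (0.731 and 0.893) inside. The difference within arms was -0.0433 (95% interval -0.0591 to -0.0274, n = 3038 peaks, adjusted p = 2.30e-07) in WT replicate 1. In WT replicate 2 it was -0.0493 (-0.0614 to -0.0372, n = 3931 peaks, adjusted p = 7.25e-15). The median was lower at the end in 26 of the 36 arms with at least 3 end peaks in WT replicate 1 and in 30 of 37 in WT replicate 2.

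Low focus ratios were common at the ends. Values under 0.7 were found in 136 of 416 end peaks (32.7%) in WT replicate 1, against 17.2% over all sites of that list, and in 254 of 698 (36.4%) in WT replicate 2, against 22%. With log2 height as a term, the difference was -0.0383 in WT replicate 1 and -0.0435 in WT replicate 2. It was also present in shared sites, with medians of 0.809 at the ends and 0.857 inside in WT replicate 1 and 0.816 and 0.864 in WT replicate 2. The median in WT replicate 2 lay between 0.743 and 0.765 in each of the 5 outer Mb and reached 0.795 from 5 to 10 Mb and 0.826 from 10 to 15 Mb. In WT replicate 1 it was between 0.750 and 0.771 in the outer 4 Mb, 0.821 between 4 and 5 Mb and 0.810 from 5 to 10 Mb.

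**Figure D4:**
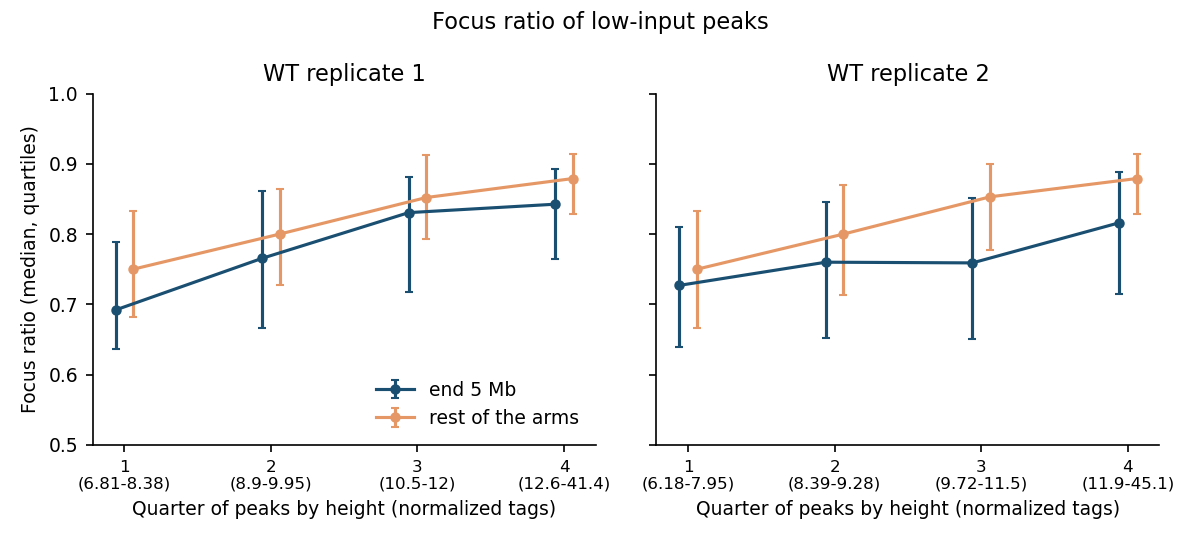
Median focus ratio of low-input peaks (vertical axis, from 0.5 to 1; bars run from the lower to the upper quartile) in 4 groups of rising height in normalized tags (horizontal axis), for each WT replicate, in the end 5 Mb and in the rest of the arms. In all 4 groups of both lists the end median is below the interior one, by most in the third group of WT replicate 2, at 0.759 and 0.853.

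Where a site was in both lists, the 2 lists placed its centre less exactly near the ends. The centres were a median of 38 bp apart (quartiles 18 and 78.3 bp) at the ends and 33 bp (15 and 58 bp) inside. They were more than 100 bp apart at 50 of 252 end sites (19.8%), against 11.7% of all shared sites. The mean distance differed within arms by 15.4 bp (95% interval 7.15 to 23.7, n = 1953 sites, adjusted p = 4.26e-04). This test was chosen after the peak positions had been seen, and it did not pass against 5 to 15 Mb alone (10.4 bp, n = 595 sites, p = 0.0537) or with at most 1 input tag (8.99 bp, n = 997 sites, p = 0.125).

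Heights of the 252 shared members differed between the lists by at most 2-fold at all 252 sites. The same held for 1690 of 1701 shared interior sites (99.4%), so this is not particular to the ends. The median log2 difference, WT replicate 2 minus WT replicate 1, was -0.02 with an SD of 0.38, and the interior values were -0.02 and 0.37. For log2 height, Pearson's r over these 252 sites was 0.507 and Spearman's rho was 0.404, and over 1701 interior sites they were 0.472 and 0.393. The focus ratios of the lists were also related, with an r of 0.651 and a rho of 0.618 at the ends and an r of 0.545 and a rho of 0.408 inside. These coefficients describe sites that share their libraries and had to pass in both lists. Heights of at least 10 in both lists were reached by 87 of 252 shared members (34.5%), against 44.6% of all shared sites.

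**Figure D5:**
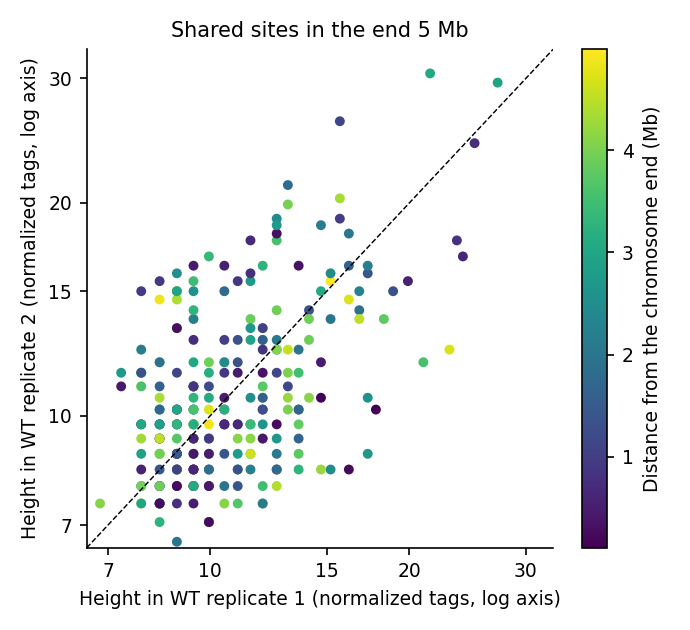
Height in WT replicate 1 (horizontal axis) and WT replicate 2 (vertical axis) of the 252 shared subtelomeric sites in normalized tags on log axes, coloured by distance from the chromosome end; the dashed line marks equal heights. Points spread evenly about the line, with a median log2 difference of -0.02, and the tallest are near 30 in WT replicate 2.

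The tallest shared members were spread over 9 chromosomes. The first was on chromosome 17 (78235193 to 78235542), 2960 kb from the end, and had heights of 27.2 and 29.6 normalized tags in WT replicates 1 and 2. It was a sharp peak, with focus ratios of 0.855 and 0.895. The second was on chromosome 1 from 3030681 to 3031033, 3031 kb from the end, with heights of 21.5 and 30.5 and no input tag in either list. The third, on chromosome 13 from 114436522 to 114436946, had heights of 25.1 and 24.3. Its focus ratios of 0.636 and 0.641 were below the lower quartile of the end peaks in both lists. Next came chromosome 7 from 1110382 to 1110759, a site that was also diffuse, with focus ratios of 0.654 and 0.679, and it was taller in WT replicate 2 (26.1) than in WT replicate 1 (15.7).

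Heights at a site on chromosome 12 from 804295 to 804626 were 23.6 and 17.7, and at one on chromosome 11 from 134367511 to 134367842 they were 24.1 and 16.8. Both lay within 1 Mb of the end and were taller in WT replicate 1. The chromosome 16 site at 4322949 to 4323312 had heights of 15.7 and 20.3. The site on chromosome 20 from 4700689 to 4701035 had heights of 23.0 and 12.4, the widest gap between the lists among the 12. The site on chromosome 18 from 556114 to 556438 had heights of 19.9 and 15.5 and, with focus ratios of 0.915 and 0.878, was among the sharpest.

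The last of the 12 lay on the long arm of chromosome 12, on the short arm of chromosome 16 and on chromosome 17. The first of these, from 132860595 to 132860998, had heights of 15.7 and 19. The second, from 1786617 to 1786940, had heights of 13.1 and 21.2 and focus ratios of 0.550 and 0.629, the lowest of the 12 in both lists. The last, from 79112551 to 79112921, had heights of 16.2 and 18.1. None of these 3 sites had an input tag in either list, so their folds over input rest on the caller's floor of 0.5 tags. Distance from the end did not order the 12, which ran from 556 kb on chromosome 18 to 4701 kb on chromosome 20.

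Peaks in 1 list alone reached heights within the range of these 12 in the same list. In WT replicate 1 alone the tallest was on chromosome 16 from 4132548 to 4132864 with a height of 15.7, followed by chromosome 12 from 1289346 to 1289662 with 14.1. Each had 3 input tags. In WT replicate 2 alone the tallest was on chromosome 9 from 139719736 to 139720056 with a height of 15.5 and a focus ratio of 0.929. After it, 4 sites were level at 14.1, among them 1 on chromosome 12 from 3214706 to 3215026.

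Members lay closer together than interior sites, as their density sets. The median gap between neighbouring centres on an arm was 96.8 kb over 825 pairs, against 338 kb inside, and 85 pairs lay within 10 kb. The 3 closest pairs each joined a site of one list alone to a site of the other alone, with centres 320 to 341 bp apart. On chromosome 11 a WT replicate 2 peak from 356404 to 356724 (height 12.4) stood beside a WT replicate 1 peak from 356726 to 357042 (height 11.5). On chromosome 16 the pairs were a WT replicate 1 peak from 87243644 to 87243960 (7.86) beside a WT replicate 2 peak from 87243972 to 87244292 (8.83), and a WT replicate 2 peak from 4276777 to 4277097 (10.6) beside a WT replicate 1 peak from 4277120 to 4277436 (9.95). Such pairs count as single-list sites. When peaks within 500 bp were merged, an alternative chosen after seeing the data, the density ratio was 2.72 and the odds ratio of sharing 0.639.

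The limits of the rule cut through a gradual series of sites. The last site inside 5 Mb was on chromosome 7 (4985648 to 4985972; heights of 15.2 and 15.5), and the first outside was on chromosome 2 from 5010566 to 5010882, with 10.5 in WT replicate 1 alone. By input, 122 members had 3 tags and 30 sites just outside had 4. Their median heights were 10.5 and 13.2, against 8.83 for members with fewer than 3 tags, and the caller's demand for a multiple of the input sets part of this order. The tallest end site left out had 4 input tags in both lists. It lay on chromosome 4 from 52729 to 53049, 52.9 kb from the end, with heights of 50.3 and 43.3, above every member.

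KO cells had almost no peak in these windows, as in the genome as a whole. On all chromosomes, KO replicates 1 and 2 had 11 and 12 peaks, and WT replicates 1 and 2 had 3348 and 4388. WT replicates 1 and 2 had 423 and 702 peaks with 3 or fewer input tags within 5 Mb of an end, and KO replicates 1 and 2 had 0 and 1. As log2(peaks + 1), WT exceeded KO by 8.59 on average, and a two-sided exact permutation test over libraries gave p = 0.33, the lowest value that 2 against 2 allow. The KO libraries were shallower and were called with windows of 179 and 186 bp, against 317 and 321 bp in WT. The part of this in the difference was not tested. The single KO peak was on chromosome 17 from 80317520 to 80317706, 878 kb from the end, with a height of 8.96 normalized tags and 2 input tags. It overlapped no WT peak, and the nearest member was 29.0 kb away.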

How the data were processed

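The submitters' processing notes name the hg19 build and the tools BWA 0.7.17, Picard and HOMER 4.10. Per the file headers, each library had its own run of HOMER findPeaks (factor mode, false discovery rate of 0.001), and a peak had to exceed both the input and its surrounding 10 kb 4-fold at a Poisson p of 0.0001. The name of the input directory mentions 2 days, so its tags cannot be tied to day 3 alone. Deposited heights are a signal, the tags of a peak scaled to a library of 10000000. Input tags are a deposited signal with a floor of 0.5. The deposited focus ratio is a fraction, the deposited folds over input, local tags and clonal tags are linear ratios, and all are the authors' values per peak. The deposited findPeaks score and p-values were not used.

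Overlapping WT peaks were merged, and every peak of a site had to have 3 or fewer input tags. Tests of height, focus ratio and fold over local took all peaks of a list with 3 or fewer input tags, 423 and 702 at the ends, of which 416 and 698 were at member sites; the others were merged with a peak of more input tags. Density was fitted by Poisson regression with errors scaled by the dispersion, shares by logistic regression and the other values by least squares with the arm as a term, the last 2 with errors clustered by arm. P-values were adjusted over 10 tests by the Benjamini-Hochberg method. They run over sites, peaks and arms of these 2 libraries. Such sites, peaks and arms are not replicates of a condition, and intervals on counts cover counting error only. Chromosome lengths were those of hg19 in the GenomeInfoDb package, unsequenced bases included. Arms were split at approximate centromere midpoints written by hand in whole Mb. The fits were tested on simulated sites. Sites named were the 12 tallest shared members, the 5 nearest to an end, the 2 tallest of each list alone, the 3 closest pairs and the KO peaks. Arms named were the 5 fullest and the 5 emptiest; other arms and the sites at the limits of the rule were chosen after their values were seen. The members and the tests were chosen with earlier results of these data known. The gene tables at hand are of another assembly, so no site was assigned to a gene and no sequence was read. Software was statsmodels 0.14.6, scipy 1.17.1, pandas 2.3.3, numpy 2.4.6 and matplotlib 3.10.9 under Python 3.11.15.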

Additional observations from a re-analysis of the deposited data

How the results depend on the processing

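Of 114 alternatives over 11 results, 98 kept the direction and the side of an unadjusted p of 0.05. These 98 include all 10 for WT against KO, where so few libraries cannot reach 0.05 in any setting. All 14 for density kept both (1.98 to 2.89), with 2.15 to 2.89 when either WT replicate was left out. So did the 10 for the focus ratio in each list. The odds ratio of sharing was 0.807 over WT replicate 1 peaks, and that of WT replicate 2 among single-list sites was 1.44 for heights of at least 10. The height difference in WT replicate 1 was -0.0401 with a 2 Mb window, -0.0198 against 5 to 15 Mb, -0.0335 with no limit on input tags, -0.00753 for heights of at least 10 and -0.0365 for shared peaks. In WT replicate 2 it was 0.00449, of the opposite sign, for heights of at least 10 and -0.0233 for shared peaks. The difference in log2 fold over local in WT replicate 1 passed with at most 1 input tag (-0.0799) and without chromosome 17 (-0.0784). In WT replicate 2 it did not pass against 5 to 15 Mb (-0.0428), for heights of at least 10 (-0.0518) or for shared peaks (-0.0414). The offset of centres was 10.4 bp against 5 to 15 Mb and 8.99 bp with at most 1 input tag. Several of these settings leave fewer sites or peaks; the cause was otherwise not tested. The log2 difference in peak number between WT and KO was 8.09 to 9.09 without each library in turn. With the replicate block it was 8.59, with an exact sign-flip p of 0.5, the smallest that 2 pairs can give; apart from their numbers, the labels do not pair these libraries. The file headers give tag thresholds of 16 and 17 for WT replicates 1 and 2, and sites that fell below the caller's limits were not seen. The lowest deposited heights at the ends, 6.81 and 6.18, correspond to fewer tags than these thresholds. The thresholds are therefore not a floor on the deposited heights.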
